A study of Mus musculus with 96 samples.

Results

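Insulin receptor signalling and FOXO-responsive genes were followed in mouse liver through 8 members: the insulin receptor Insr, the receptor substrates Irs1 and Irs2, the kinase Akt2, the transcription factors Foxo1 and Foxo3, and the FOXO-responsive genes Igfbp1 and Sesn1. They were chosen as named members of the pathway, with earlier results of these data known, and are 8 of the 35670 genes with at least 1 count. All 8 were among the 15772 genes that passed the filter on low counts, and the lowest raw count of any of them in any library was 10. Poly(A) RNA was measured in 96 liver libraries from mice of 12 to 16 weeks. The libraries form 8 groups of 12: the Bmal1 line, wild type (WT) or Bmal1 knockout (KO), and the Cry line, wild type or knockout for both Cry1 and Cry2, each fed ad libitum (AL) or with food restricted to the night (RF). Each group holds 2 libraries at each of 6 zeitgeber times (ZT, hours after lights on) spaced 4 h apart. The labels do not say in which cells the genes were deleted, give no agent or diet beyond the feeding regimen, and do not tie libraries to animals, so the p-values here measure the spread between these libraries.

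Insulin binds its receptor, a tyrosine kinase, which phosphorylates the IRS proteins. These recruit PI3-kinase, and the lipid signal it makes activates AKT, of which AKT2 is a main form in hepatocytes. AKT phosphorylates the FOXO proteins, which then leave the nucleus, so genes that FOXO proteins switch on are high in the fasted liver and low after a meal. Irs2 and Igfbp1, which encodes a secreted protein that binds insulin-like growth factors, are classic liver genes of this kind. BMAL1, with CLOCK, drives the molecular clock through E-box sequences, and CRY1 and CRY2 repress it. FOXO proteins are regulated largely by phosphorylation and location, which mRNA levels do not show.

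The libraries held between 1478963 and 35568856 counts (median 25422366). Of the 96 libraries, 7 stood apart by an acute-phase, interferon-induced or pancreatic transcript (Saa1 above 5000, Isg15 above 50 or Ctrb1 above 40 CPM, normalised counts-per-million): 2 each in Bmal1 KO RF, Cry KO RF and Cry WT AL, and 1 in Cry WT RF. The titles number 2 series of 6 libraries in each group, 1 library per time, and the series of Cry KO AL differed. With both, 5205 genes differed between Cry KO and Cry WT under AL; without series 2 there were 846, and without series 1 there were 9895. Series 2 was lower than series 1 for Irs1 (mean 6.68 against 16.1 CPM) and Insr (133 against 213 CPM), and higher for Igfbp1 (178 against 34.1 CPM). Reads of the targeted genes remained in the knockouts: Arntl, which encodes BMAL1, was 9.71 to 21.2 CPM in the Bmal1 KO libraries and 0.272 to 45.0 CPM across all WT libraries. Cry1 was 5.38 to 12.7 CPM in the Cry KO libraries and 5.95 to 71.4 CPM in the Cry WT libraries, and Cry2 was 13.1 to 32.0 CPM and 18.9 to 60.7 CPM in the same libraries. The deleted parts are not given in the labels, so these reads check the genotypes only in part. The hepatocyte markers were abundant in every library (Alb from 11700 CPM). Their summed level, over 6 of 6 markers, was lower in the Bmal1 KO than in the Bmal1 WT libraries under both regimens (AL: 28800 to 49600 against 69000 to 120000 CPM; RF: 28400 to 49900 against 50000 to 89800 CPM). The groups did not overlap, and the part of this difference in the results on the Bmal1 line was not tested. Over all libraries, Alb had a median of 60900 CPM and the next marker, Cyp2e1, 7040 CPM, so the sum mostly follows Alb. The markers were not compared singly between groups. Neutrophil markers (3 of 4 past the filter, with Ly6g under it) summed to 1.72 to 51.7 CPM in Cry KO AL (median 7.65) and 0.737 to 11.1 CPM in Cry WT AL (median 3.17). In Cry WT RF the sum ran from 0.134 to 104.0 CPM (median 0.583), and in the other groups it was at most 15.9 CPM. These ranges overlap, and the part of these cells in the results was not tested. In bulk tissue, fewer cells of a type and less RNA per cell cannot be told apart.

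Promoter sequence is shown for the 3 members whose mean level differed most between genotypes, Irs1, Irs2 and Igfbp1, because their start-site regions hold sequence elements named for insulin and clock control. Each run is the 250 bases before the RefSeq transcription start in GRCm38.p6, written 5′ to 3′ on the gene's strand. Capitals mark the insulin response element core TGTTTTG, on either strand, a second form of that core, TATTTTG, and the E-box of the clock, CACGTG. The first is chr1:82291440-82291689 on the minus strand, the second chr8:11008930-11009179 on the minus strand and the third chr11:7197537-7197786 on the plus strand.
Irs1: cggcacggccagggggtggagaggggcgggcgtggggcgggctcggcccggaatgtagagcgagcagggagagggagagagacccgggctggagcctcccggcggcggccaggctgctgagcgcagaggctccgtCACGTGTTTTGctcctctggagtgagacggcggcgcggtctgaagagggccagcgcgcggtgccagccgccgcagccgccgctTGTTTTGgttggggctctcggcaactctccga
Irs2: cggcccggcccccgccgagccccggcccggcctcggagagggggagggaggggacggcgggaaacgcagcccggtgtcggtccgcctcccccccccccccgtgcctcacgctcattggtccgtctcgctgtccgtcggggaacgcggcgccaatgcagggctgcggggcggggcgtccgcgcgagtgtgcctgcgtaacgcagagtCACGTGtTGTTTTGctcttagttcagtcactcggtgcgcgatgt
Igfbp1: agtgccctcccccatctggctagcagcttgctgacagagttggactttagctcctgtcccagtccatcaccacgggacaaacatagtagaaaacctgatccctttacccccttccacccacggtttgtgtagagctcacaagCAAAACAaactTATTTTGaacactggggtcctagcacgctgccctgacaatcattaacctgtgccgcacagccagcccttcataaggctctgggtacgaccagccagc
In Irs1 the E-box begins at position -115 from the start and shares its last bases with a first insulin response core at -111, and another such core stands at -32. In Irs2 an E-box at -44 is followed by the first core at -37. Igfbp1 has the first core at -108, read on the other strand as CAAAACA, and the second form at -97, and no E-box. RefSeq windows from 250 bases before to 50 after the start were found for 7 of the 8 members (all but Insr), 11 windows in all, and were searched on both strands for 6 motifs. TGTTTTG was in the windows of 3 of the 7 genes and in 6.28% of all 32851 promoter windows of that length, TATTTTG in 1 (4.36%), CACGTG in 2 (7.15%), and the FOXO core TGTTTAC in 1, Sesn1 at position 23 after the start (3.65%). The D-box TTATGTAA (0.938%) and the ROR core AGGTCA (16.3%) were in none of the 7. The counts here are of genes, some with more than 1 window, while the shares are of windows. A match describes these letters and is not evidence of binding, and the lack of a match is not evidence that binding is absent.

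In the mm10 build the genes lie at chr8:3122061-3279617 (Insr, minus strand), chr1:82233101-82291416 (Irs1, minus), chr8:10984681-11008458 (Irs2, minus), chr7:27591552-27640826 (Akt2, plus), chr3:52268336-52353221 (Foxo1, plus), chr10:42181841-42276755 (Foxo3, minus), chr11:7197782-7202546 (Igfbp1, plus) and chr10:41809935-41908424 (Sesn1, plus). The RefSeq start used for the Irs2 window lies upstream of this Irs2 model. The members differed widely in level. Per kilobase of exon, the mean over 96 libraries was highest for Igfbp1 (49.2 CPM per kb), then Insr (14.6), Akt2 (14.2), Foxo3 (7.65), Foxo1 (5.26), Irs2 (4.80), Sesn1 (3.84) and Irs1 (1.95). The spread across libraries, in plain CPM, set them apart more clearly. Igfbp1 ran from 2.59 to 1281 CPM with a median of 30.1, a 495-fold span, and Irs2 from 4.88 to 223 CPM, a 45.7-fold span. Akt2, in contrast, stayed between 85.5 and 145 CPM, a 1.69-fold span. Insr (93.2 to 298 CPM), Foxo1 (24.99 to 118 CPM), Foxo3 (26.3 to 99.6 CPM), Sesn1 (10.02 to 24.7 CPM) and Irs1 (4.29 to 39.1 CPM) lay between these. When the 8 groups were ordered by the mean level of each gene, no neighbouring pair differed by more than its spread (SD, n = 12 libraries over the 6 times). For each gene, the whole ranges of KO and WT overlapped in all 4 pairs of groups.

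**Figure D1:**
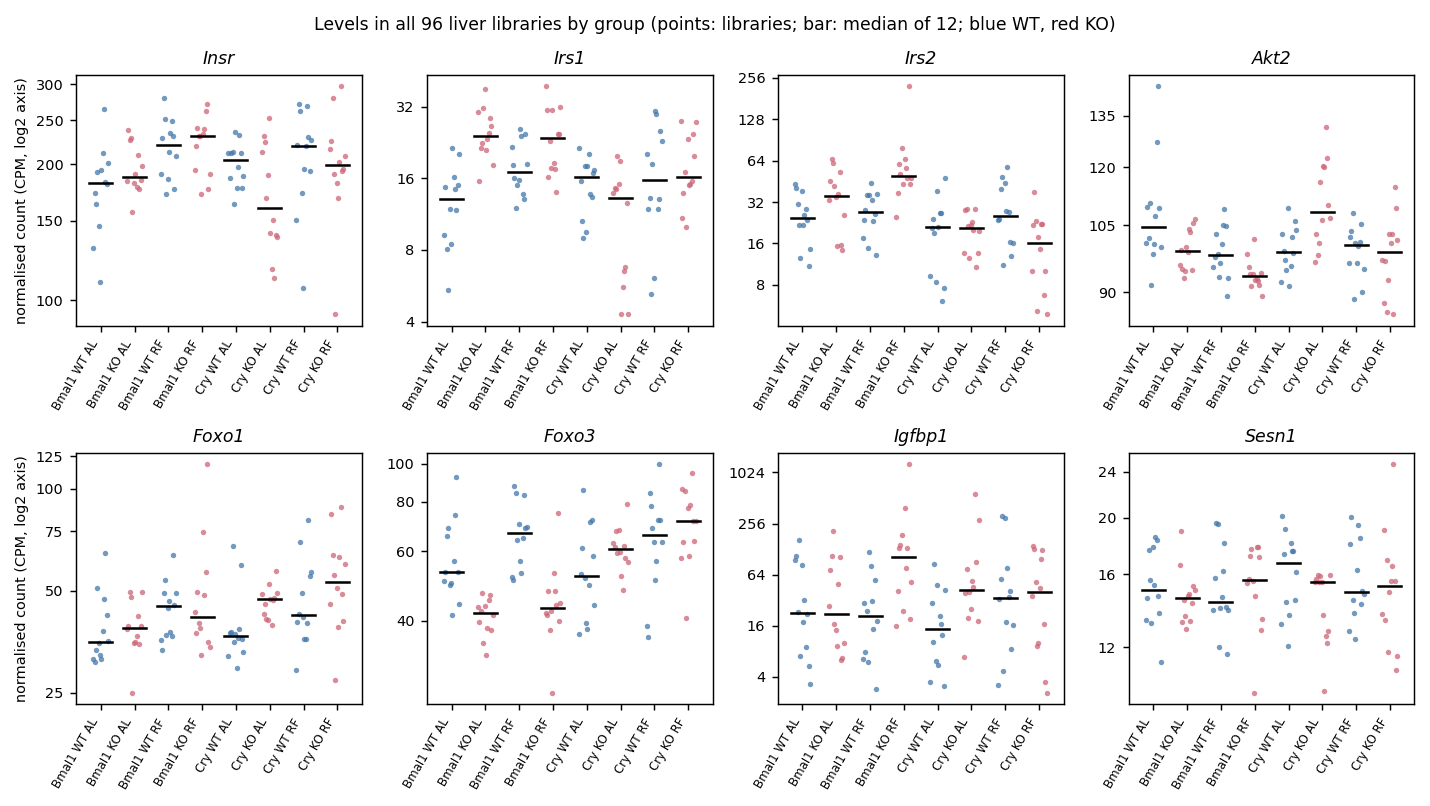
Normalised level of each of the 8 members (CPM, log2 axis) in every library, by group, with WT in blue, KO in red and a bar at the median of 12 libraries. Igfbp1 spans 2.59 to 1281 CPM and Akt2 85.5 to 145 CPM, Foxo3 is lower in both Bmal1 KO groups than in their WT groups, and Cry KO AL holds the lowest Irs1 values.

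To ask how loss of either arm of the clock changed the pathway, KO was compared with WT over the mean of the 6 times in each line and regimen. Over 4 comparisons and 8 genes, 8 of 32 differences passed the threshold (adjusted p under 0.05, edgeR quasi-likelihood test, Benjamini-Hochberg over all 15772 genes). For the Bmal1 line under AL, 2 of 8 members passed, while 24.4% of all genes did (13.7% higher, 10.7% lower). For Bmal1 under RF it was 3 of 8 (all genes 20.6%; 10.5% higher, 10% lower), for Cry under AL 2 of 8 (33%; 19.7% higher, 13.3% lower) and for Cry under RF 1 of 8 (6.3%; 3.28% higher, 3.02% lower). With so many genes called, these counts are near the background. When the series was a random effect (limma-voom), 3 of the 8 calls were kept: Irs1 in Bmal1 KO under AL, and Foxo3 in Bmal1 KO under both regimens. Calls over all 15772 genes fell too in that fit. They went from 3847 to 1277 (Bmal1 AL), 3244 to 1173 (Bmal1 RF), 5205 to 1100 (Cry AL) and 994 to 161 (Cry RF).

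**Figure D2:**
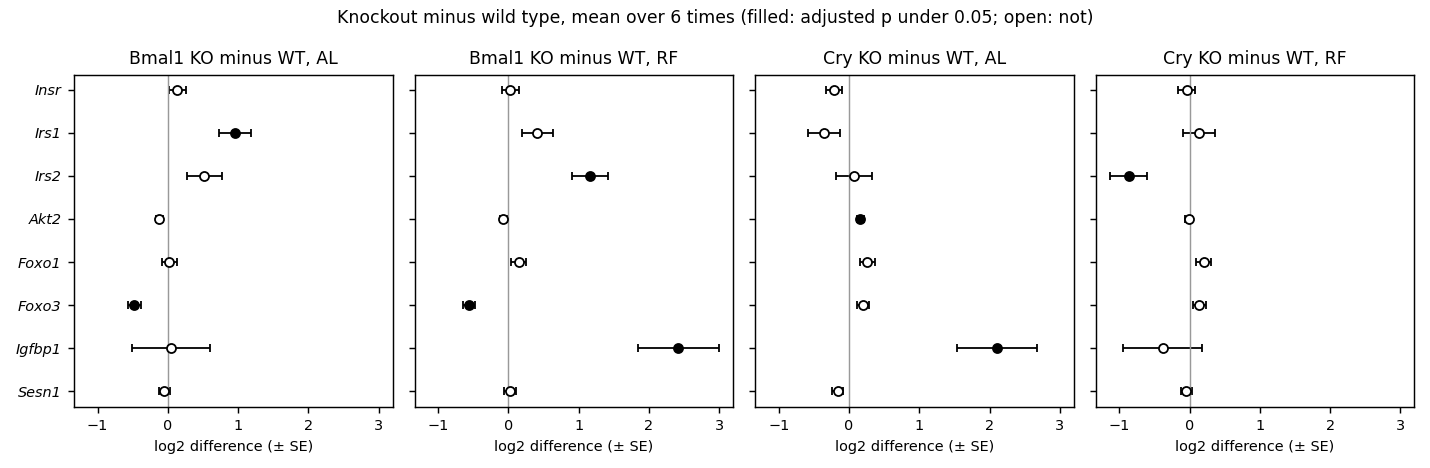
Log2 difference of KO from WT (mean of 6 times, ± SE, 12 libraries per group) for the 8 members in each line and regimen, filled where the adjusted p was under 0.05. Foxo3 is filled to the left of 0 in both Bmal1 panels, and Igfbp1 is filled to the right at 2.42 in Bmal1 RF and 2.11 in Cry AL.

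At the receptor level, Insr passed in none of the 4 comparisons, with log2 differences between -0.21 ± 0.12 (SE; Cry AL) and 0.13 ± 0.12 (Bmal1 AL). Its lowest, median and highest levels were 110, 182 and 265 CPM in Bmal1 WT AL and 157, 188 and 237 CPM in Bmal1 KO AL. All 12 KO values lay within the WT range.

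Irs1, the substrate expressed at the lower level per kilobase, was higher in the Bmal1 KO. Under AL its lowest, median and highest levels were 15.6, 24.1 and 37.9 CPM in Bmal1 KO and 5.45, 13.1 and 21.4 CPM in Bmal1 WT. The KO mean was above the WT mean at 6 of 6 times, with both KO libraries above both WT libraries at 3. With 2 libraries against 2, members that were not called also separated. Foxo1 in Cry KO AL, not called, was wholly above WT at 5 times and wholly below at 1. The share of all genes so separated was not counted, here or below. Irs1 rose 1.94-fold (log2 0.95 ± 0.22, adjusted p = 0.00088, edgeR quasi-likelihood test). The 2 series of Bmal1 WT AL differed (9.64 and 16.5 CPM), and without series 1 the difference was 0.62 with adjusted p = 0.127. Under RF the KO mean was again higher at 6 of 6 times, by 0.41 ± 0.22 on the log2 scale, which did not pass (adjusted p = 0.202). In the Cry line Irs1 differed by -0.36 ± 0.22 under AL (adjusted p = 0.212) and by 0.14 ± 0.23 under RF (adjusted p = 0.83). Of the 8 genes, 5 overlap another annotated gene. On the opposite strand these are Gm9747 for Irs1, 9530052E02Rik for Irs2, Gm16180 and the pseudogene Vmn2r-ps88 for Insr, and Gm20402 for Foxo1, and on the same strand Gm38034 for Foxo1 and 9930024M15Rik for Sesn1. The strand setting of the counting is not given in the sources used here, so reads of these partners may not be separable.

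Irs2, the substrate whose transcript is strongly induced by fasting, moved in opposite directions in the RF groups of the 2 lines. In Bmal1 KO RF it ran over 24.9, 49.9 and 223 CPM (lowest, median, highest) against 13.3, 27.1 and 43.7 CPM in Bmal1 WT RF. It was higher at 6 of 6 times, and both KO libraries were above both WT libraries at 5 of them. As for Irs1, the share of all genes so separated was not counted. Irs2 rose 2.23-fold (log2 1.16 ± 0.25, adjusted p = 0.000433, edgeR quasi-likelihood test). In Cry KO RF it ran over 4.88, 16.2 and 38.2 CPM against 11.2, 25.6 and 58.0 CPM in Cry WT RF. There it was lower at 6 of 6 times, and fell 1.83-fold (log2 -0.87 ± 0.26, adjusted p = 0.031, edgeR quasi-likelihood test). The Bmal1 call did not hold without series 4 of Bmal1 KO RF (0.79, adjusted p = 0.0634) or with the series as a random effect (1.05, adjusted p = 0.104). The Cry call was lost in 7 of 14 alternatives, among them the one without the 7 libraries that stood apart (-0.66, adjusted p = 0.267) and those without series 5 of Cry KO RF (-0.75, adjusted p = 0.298), series 6 of Cry WT RF (-0.63, adjusted p = 0.328) or series 9 of Cry WT RF (-0.93, adjusted p = 0.0662). Under AL the differences were 0.52 ± 0.25 in Bmal1 KO (adjusted p = 0.132) and 0.08 ± 0.26 in Cry KO (adjusted p = 0.848).

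Akt2, the kinase downstream of the IRS proteins, varied least of the 8. In Cry KO AL it ran over 96.4, 108 and 132 CPM against 91.4, 98.7 and 109 CPM in Cry WT AL, and it rose 1.12-fold (log2 0.16 ± 0.05, adjusted p = 0.0138, edgeR quasi-likelihood test). Without series 2 of Cry KO AL the difference was 0.06 (adjusted p = 0.699), without series 2 or 4 of Cry WT AL it was 0.14 (adjusted p = 0.146) or 0.15 (adjusted p = 0.116), and 6 of 14 alternatives lost the call. In the other 3 comparisons Akt2 differed by -0.12 ± 0.05 (Bmal1 AL, adjusted p = 0.07), -0.07 ± 0.05 (Bmal1 RF) and -0.01 ± 0.05 (Cry RF).

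Foxo3, a FOXO factor that shares many targets with Foxo1, gave the steadiest difference of the 8. Under AL it ran over 32.7, 41.7 and 46.9 CPM in Bmal1 KO and 41.4, 53.1 and 92.5 CPM in Bmal1 WT. Under RF it ran over 26.3, 43.2 and 75.01 CPM in Bmal1 KO and 50.6, 66.7 and 87.8 CPM in Bmal1 WT. Under both regimens the KO mean was lower at 6 of 6 times, and both KO libraries were below both WT libraries at 5. Foxo3 fell 1.39-fold under AL (log2 -0.48 ± 0.09, adjusted p = 2.82e-05) and 1.48-fold under RF (log2 -0.56 ± 0.09, adjusted p = 1.44e-06, edgeR quasi-likelihood test), and both calls were kept in all 15 alternatives run for each. In Cry KO, Foxo3 differed by 0.19 ± 0.09 under AL (adjusted p = 0.0804) and 0.14 ± 0.09 under RF (adjusted p = 0.423). Foxo1, the FOXO factor best known for driving gluconeogenic genes, passed in none of the 4 comparisons. Its differences were 0.02 ± 0.11 and 0.15 ± 0.11 in Bmal1 KO and 0.26 ± 0.11 and 0.20 ± 0.11 in Cry KO, under AL and RF respectively.

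Among the FOXO-responsive members, Igfbp1 showed the largest differences and the largest spread. In Bmal1 KO RF it ran over 15.7, 103 and 1281 CPM against 2.89, 20.7 and 119 CPM in Bmal1 WT RF. It was higher at 5 of 6 times and rose 5.34-fold (log2 2.42 ± 0.58, adjusted p = 0.0012, edgeR quasi-likelihood test). In Cry KO AL it ran over 6.87, 42.6 and 578 CPM against 3.10, 14.6 and 85.3 CPM in Cry WT AL. It was higher at 6 of 6 times and rose 4.31-fold (log2 2.11 ± 0.57, adjusted p = 0.00364, edgeR quasi-likelihood test). The calls did not hold without certain series. Without series 4 of Bmal1 KO RF the first was 1.35 (adjusted p = 0.178), and without series 2 of Cry KO AL the second was 0.78 (adjusted p = 0.626). Without series 4 of Cry WT AL the second was 1.964 and also missed the threshold (adjusted p = 0.0618). With the series as a random effect they were 2.10 (adjusted p = 0.239) and 1.68 (adjusted p = 0.277). In Bmal1 KO AL the difference was 0.04 ± 0.55 and in Cry KO RF -0.38 ± 0.56, neither called. Sesn1, which encodes a stress-responsive inhibitor of mTORC1 that p53 and FOXO proteins induce, passed in none, with differences from -0.16 ± 0.08 (Cry AL) to 0.02 ± 0.08 (Bmal1 RF).

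A single library carried the highest values of several members. In Bmal1 KO RF at ZT12, the library of series 4 had 1281 CPM of Igfbp1 against 143 in the other library, 223 against 51.6 CPM of Irs2, 118 against 40.2 CPM of Foxo1, and 75.01 against 37.8 CPM of Foxo3. It was not one of the 7 that stood apart. Without it, an alternative chosen after seeing the data, the Bmal1 KO differences under RF were 0.92 for Irs2 (adjusted p = 0.00502), 2.03 for Igfbp1 (adjusted p = 0.00743) and -0.66 for Foxo3 (adjusted p = 1.35e-08), so all 3 calls were kept. They were also kept without the 7 libraries that stood apart, at 0.995 for Irs2 (adjusted p = 0.00495), 1.68 for Igfbp1 (adjusted p = 0.0425) and -0.67 for Foxo3 (adjusted p = 1.74e-07, edgeR quasi-likelihood test).

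To ask whether the KO effects differed between the lines, the Cry KO effect was compared with the Bmal1 KO effect by an interaction contrast. Under AL, 4 of 8 members differed between the lines, close to the 40.8% of all genes that did. The Cry effect was lower by 1.31 ± 0.32 for Irs1 (adjusted p = 0.000834) and higher by 0.67 ± 0.12 for Foxo3 (adjusted p = 2.58e-05), 0.28 ± 0.07 for Akt2 (adjusted p = 0.00156) and 2.06 ± 0.79 for Igfbp1 (adjusted p = 0.0311, all log2, edgeR quasi-likelihood test). Under RF, 3 of 8 differed, against 15.2% of all genes. The Cry effect was higher by 0.70 ± 0.12 for Foxo3 (adjusted p = 2.19e-05) and lower by 2.02 ± 0.36 for Irs2 (adjusted p = 2.82e-05) and 2.80 ± 0.80 for Igfbp1 (adjusted p = 0.00987, all log2, edgeR quasi-likelihood test). Foxo3 under both regimens and Irs1 under AL kept these calls in all 19 alternatives. Irs2 lost its call in 1 (the series as a random effect, adjusted p = 0.0763), Akt2 in 3, and Igfbp1 in 7 under AL and 6 under RF. The WT groups of the lines differed in 20.5% of all genes under AL and 0.856% under RF, and 0 of 16 member differences passed by edgeR or by DESeq2. At an unadjusted p under 0.05 there was 1, Akt2 under AL.

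Feeding time was asked about next. RF was compared with AL in the 4 genotypes, and 1 of 32 differences passed: Akt2 fell 1.13-fold in Cry KO (log2 -0.18 ± 0.05, adjusted p = 0.0123, edgeR quasi-likelihood test), from 96.4, 108 and 132 CPM to 85.5, 98.8 and 115 CPM (lowest, median, highest). Without series 2 of Cry KO AL it was -0.07 (adjusted p = 0.53), and without series 3 of Cry KO RF -0.11 (adjusted p = 0.233). Of the 32 differences with all libraries, 15 had an unadjusted p under 0.05 (edgeR quasi-likelihood test). Among all 15772 genes such a p was found for 5147 in Bmal1 WT, 2094 in Bmal1 KO, 2245 in Cry WT and 5080 in Cry KO. The median member difference was 0.15, 0.15, 0.19 and 0.14 in these genotypes, beside all-gene medians of 0.01, -0.02, 0.002 and -0.03. All-gene calls for the same comparisons were 15.7% in Bmal1 WT, 0.545% in Bmal1 KO, 1.59% in Cry WT and 18.2% in Cry KO (5.07% higher, 13.1% lower). Members that came near were Irs1 in Cry KO (0.62 ± 0.23, adjusted p = 0.0522) and Igfbp1 in Bmal1 KO (1.87 ± 0.56, adjusted p = 0.102). A test of whether feeding altered the KO effect called 1 member in 16: the Cry KO effect on Igfbp1 was lower under RF by 2.49 ± 0.80 (adjusted p = 0.0476, edgeR quasi-likelihood test; all genes 6.33%), a call lost in 12 of 19 alternatives. For the Bmal1 KO effect no gene at all was called (0%), and Igfbp1 was higher under RF by 2.37 ± 0.79 (adjusted p = 0.596). At single times, 0 of 192 feeding differences passed by edgeR or by DESeq2 (all genes 0.0312% by edgeR), and 21 had an unadjusted p under 0.05.

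The highest or lowest mean of Insr, Foxo1, Foxo3, Irs1 and Irs2 fell at the same time in all 4 WT groups, each mean being of 2 libraries. The share of all genes for which this held was not counted. In these groups the mean of Insr was highest at ZT8, and that of Foxo1 and of Foxo3 at ZT12. The mean of Irs1 was lowest at ZT12, and the mean of Irs2 was lowest at ZT16. For Foxo3 the mean went from 46.0 CPM at ZT0 to 80.7 CPM at ZT12 in Bmal1 WT AL, and from 37.6 to 78.8 CPM in Cry WT AL. Foxo1 went from 31.4 to 57.8 CPM and from 30.8 to 63.6 CPM at the same times. Irs1 went the other way under RF, from 23.7 CPM at ZT0 to 12.5 CPM at ZT12 in Bmal1 WT and from 25.4 to 9.13 CPM in Cry WT. In the KO groups fed AL the means of Foxo3 lay between 36.5 and 46.7 CPM (Bmal1) and between 54.7 and 73.6 CPM (Cry).

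**Figure D3:**
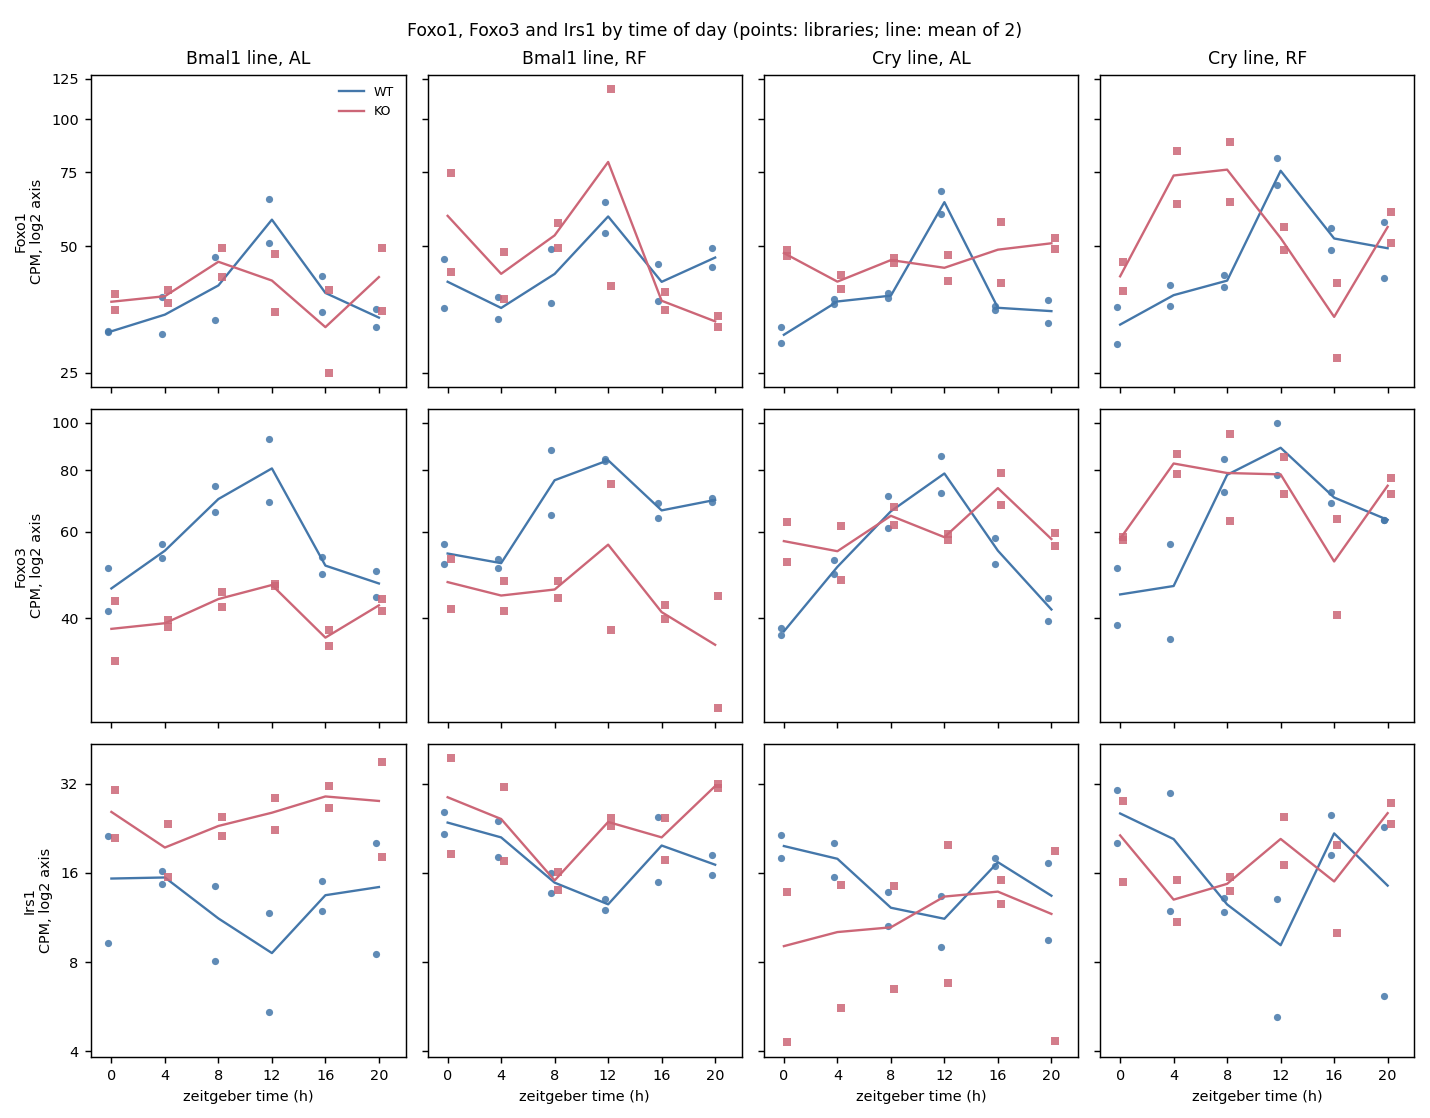
Foxo1, Foxo3 and Irs1 (CPM, log2 axis) by zeitgeber time in the 4 line and regimen pairs, with each library as a point and the mean of 2 as a line, WT in blue and KO in red. All 4 WT groups have their highest Foxo1 and Foxo3 and their lowest Irs1 mean at ZT12, and the Foxo1 mean of Cry KO RF is highest at ZT8.

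A 24 h cosine was fitted within each group, and a gene was called rhythmic at adjusted p under 0.05 with a fitted range from trough to peak of at least 0.5 on the log2 scale. Of 64 gene and group pairs, 8 passed, 7 of them in WT groups. Foxo3 was rhythmic in Bmal1 WT AL (range 0.80, peak at 10.1 h, adjusted p = 0.00462), Cry WT AL (1.02, 10.8 h, adjusted p = 0.00024) and Cry WT RF (0.98, 12.7 h, adjusted p = 0.000286, edgeR quasi-likelihood test). In Bmal1 WT RF its range was 0.60 (adjusted p = 0.053). In Cry WT RF, Foxo1 (0.99, 13.6 h, adjusted p = 0.011) and Insr (0.74, 8.74 h, adjusted p = 0.0235) also passed. Sesn1 passed in the RF groups of Bmal1 WT (0.52, 7.23 h, adjusted p = 0.0371), Cry WT (0.51, 6.29 h, adjusted p = 0.0243) and Cry KO (0.67, 6.33 h, adjusted p = 0.0107, edgeR quasi-likelihood test). By group, the share of all genes called was 9.97% in Bmal1 WT AL, 0.0317% in Bmal1 KO AL, 12.8% in Bmal1 WT RF, 5.26% in Bmal1 KO RF, 6.67% in Cry WT AL, 0% in Cry KO AL, 18.9% in Cry WT RF and 6.63% in Cry KO RF. Without the 7 libraries that stood apart, Insr in Cry WT RF (0.71, adjusted p = 0.0557) and Sesn1 in Cry KO RF (0.43, adjusted p = 0.372) were lost. Each of the 8 rhythm calls was also lost in at least 1 of the 2 fits that left out a series of its group.

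A cosine describes a narrow peak poorly. When any difference among the 6 time means was tested instead, with the same minimum range, Foxo1 passed in 4 groups: Bmal1 KO RF (1.25, adjusted p = 0.0109; all genes 3.04%), Cry WT AL (1.05, adjusted p = 0.0456; all genes 5.09%), Cry WT RF (1.22, adjusted p = 0.00607; all genes 14.8%) and Cry KO RF (1.16, adjusted p = 0.0181, edgeR quasi-likelihood test; all genes 3.71%). The call in Bmal1 KO RF rested on the ZT12 library of series 4 described above, and without it, in a fit added after seeing the data, the range was 0.82 and did not pass (adjusted p = 0.133, edgeR quasi-likelihood test; all genes 1.46%). Foxo3 kept its 3 calls, including that in Bmal1 WT AL (all genes 6.25%), and the 3 calls of Sesn1 and that of Insr were lost. Irs1, Irs2, Igfbp1 and Akt2 passed by neither test in any group.

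Foxo1 and Foxo3 were also the 2 members, of 64 tests, whose rhythm differed between groups, and both did so between Cry KO and Cry WT under RF (all genes 2.66% there, 0.72% over all 8 comparisons of rhythms). The fitted cosine of Foxo1 peaked at 5.79 h in Cry KO RF and at 13.6 h in Cry WT RF. The ranges were 0.85 and 0.99 (adjusted p = 0.026 for the difference, edgeR quasi-likelihood test). In Cry KO RF the cosine of Foxo1 was not itself called. Its means there also rose from 33.98 CPM at ZT16 to 55.55 CPM at ZT20. At ZT4 the Foxo1 libraries of Cry KO RF were 62.9 and 84.4 CPM against 36.0 and 40.5 CPM in Cry WT RF, and at ZT12 they were 49.1 and 55.5 against 69.9 and 81.2 CPM. The groups thus changed order between these times without overlap at either, and the share of all genes that did so was not counted. At ZT4 the Cry KO RF values rest on 266 and 124 raw counts of Foxo1, the second in the shallowest of the 96 libraries. Foxo3 had a range of 0.40 in Cry KO RF and 0.98 in Cry WT RF (adjusted p = 0.0475, edgeR quasi-likelihood test). Neither difference passed without the 7 libraries that stood apart (adjusted p = 0.0559 and 0.0732, edgeR quasi-likelihood test) or without the 3 shallowest. None of the leave-out fits for these groups kept either.

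At single times, 7 of 192 KO differences passed (all genes 1.89% over the 24 comparisons). Foxo3 accounted for 4: lower in Bmal1 KO at ZT12 under AL (-0.79 ± 0.22, adjusted p = 0.0146; all genes 6.9%), and at ZT8 (-0.74 ± 0.21, adjusted p = 0.0365; 3.4%) and ZT20 under RF (-0.95 ± 0.22, adjusted p = 0.00875; 1.63%), and higher in Cry KO RF at ZT4 (0.82 ± 0.22, adjusted p = 0.044, edgeR quasi-likelihood test; 1.2%). Akt2 was lower in Bmal1 KO AL at ZT12 (-0.44 ± 0.13, adjusted p = 0.0202). Irs2 was higher in Bmal1 KO RF at ZT12 (2.15 ± 0.63, adjusted p = 0.0273; all genes 6.1%) and ZT16 (2.11 ± 0.65, adjusted p = 0.0459, edgeR quasi-likelihood test; all genes 4.52%). At ZT16 the KO libraries had 42.9 and 78.5 CPM of Irs2 and the WT libraries 13.3 and 14.8 CPM, with no overlap. Without the library of series 4 described above, which leaves 1 KO library at ZT12, the ZT12 difference was 0.73. The ZT12 call was lost in 5 of 14 alternatives. The ZT16 call does not involve that library, but was lost in 6 of 14, among them that without the 3 shallowest libraries. Each of these 7 calls was lost in most of the 4 fits that left out a series of its groups. The Foxo3 call in Bmal1 KO RF at ZT8 was kept in 0 of the 4, and each of the others in 1. Such a fit leaves 1 library on 1 side of the comparison. The Foxo3 calls in Bmal1 KO RF at ZT20 and in Cry KO RF at ZT4 were also lost without the 3 shallowest libraries.

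Irs2 and Igfbp1 both reached a low at ZT16 in the WT groups. At that time Irs2 was 11.8, 14.0, 7.97 and 12.1 CPM and Igfbp1 6.18, 4.41, 4.58 and 6.495 CPM (mean of 2) in Bmal1 WT AL, Bmal1 WT RF, Cry WT AL and Cry WT RF. For Igfbp1 it was the lowest mean of the day in 3 of the 4, while in Cry WT AL ZT0 was as low, at 4.45 CPM. In Bmal1 KO RF the 2 series disagreed at ZT16. Series 4 was at its lowest of the day there for both genes (42.9 CPM of Irs2 and 19.0 CPM of Igfbp1), and series 2 was at its highest (78.5 and 188 CPM). In Cry KO RF the means of both were highest at ZT8 (30.2 CPM of Irs2 and 127 CPM of Igfbp1) and lowest at ZT16 (7.61 and 6.32 CPM), as ranges of 1.72 and 4.92 in the fitted cosine that did not pass (adjusted p = 0.0915 and 0.0737, edgeR quasi-likelihood test).

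**Figure D4:**
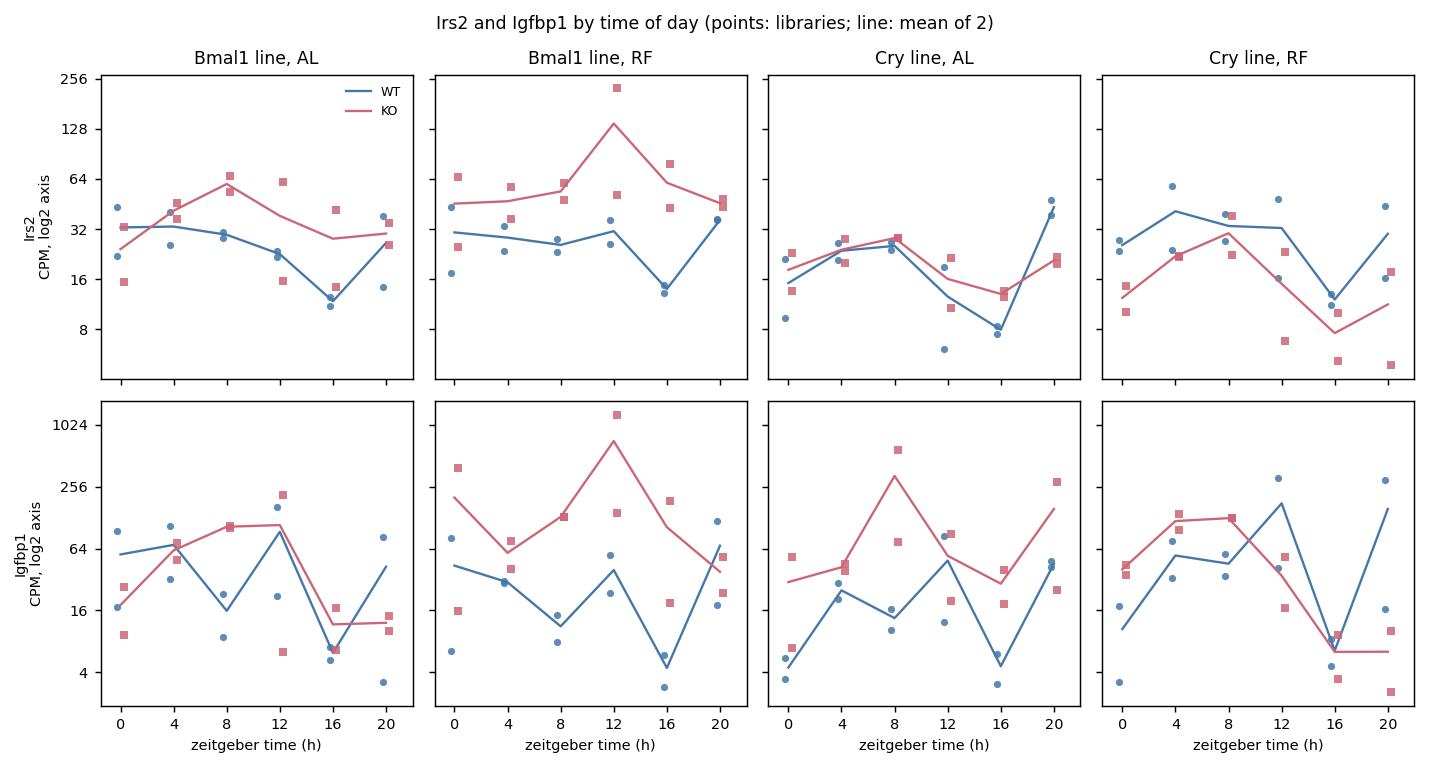
Irs2 and Igfbp1 (CPM, log2 axis) by zeitgeber time in the 4 line and regimen pairs, with each library as a point and the mean of 2 as a line, WT in blue and KO in red. All 4 WT groups are low at ZT16 for both genes, while in Bmal1 KO RF 1 library at ZT16 is the lowest of its series (42.9 CPM of Irs2 and 19.0 CPM of Igfbp1) and the other the highest of its own (78.5 and 188 CPM).

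Across the 48 means of group and time, which share libraries between genes and include the group differences above, Irs2 and Igfbp1 went together (Pearson r = 0.678), as did Foxo1 and Foxo3 (0.672) and Insr and Sesn1 (0.684). Irs1 ran against Akt2 (-0.612) and Foxo3 (-0.582). Among 9456 genes with a mean of at least 5 CPM, the patterns most like each member were those of Mfsd4a, Ubxn7 and March7 for Insr (r = 0.921, 0.917 and 0.903), Ap1g1, Caprin1 and Selenoi for Irs1 (0.903, 0.84 and 0.83), and 4833411C07Rik, Ccng2 and Tab2 for Irs2 (0.848, 0.842 and 0.822). For Igfbp1 they were Ip6k2, Irf2bp2 and C9orf72 (0.865, 0.746 and 0.704), for Foxo1 Il6ra, Ell2 and Ppargc1a (0.839, 0.81 and 0.806), and for Foxo3 Mknk2, Stk35 and Ndel1 (0.912, 0.856 and 0.843). The 3 nearest to Akt2 all encode proteasome subunits, Psma3, Psmb4 and Psmc3 (0.801, 0.796 and 0.795), and Sesn1 was nearest to Rbl2, Cdc14b and Nbr1 (0.809, 0.776 and 0.776).

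The rest of the pathway was read from 5 lists. Values of list genes are from the main fit only, without the alternatives. In Cry KO AL they rest on the 2 unlike series described above. Of 10 tested receptor-level and adaptor genes, 1 rose and 2 fell in Bmal1 KO under AL (24.4% of all genes were called), while 1 rose and 3 fell under RF (all genes 20.6%). In Cry KO 1 rose and 3 fell under AL (all genes 33%), and 1 fell under RF (all genes 6.3%). Gab1, a docking adaptor for growth factor receptors, fell in Bmal1 KO under AL (-0.55 ± 0.08, adjusted p = 1.12e-07) and RF (-0.55 ± 0.08, adjusted p = 1.34e-07) and rose in Cry KO AL (0.34 ± 0.08, adjusted p = 0.000681, edgeR quasi-likelihood test). Ceacam1, which promotes insulin clearance by the liver, rose in Bmal1 KO under AL and RF (0.39 ± 0.09 and 0.55 ± 0.09) and fell in Cry KO AL (-0.30 ± 0.09). Of 27 genes of the PI3K, AKT and mTOR arm, 4 rose and 3 fell under AL in the Bmal1 KO (all genes 24.4%), and 3 rose and 2 fell under RF (20.6%), so these counts are near the background. In Cry KO 2 rose and 3 fell under AL, below the 33% of all genes, and none was called under RF (6.3%). Pik3r3, a regulatory PI3-kinase subunit, rose in Bmal1 KO AL (0.91 ± 0.15) and fell in Cry KO AL (-0.70 ± 0.16). The kinase Sgk1 rose in Bmal1 KO under AL and RF (1.02 ± 0.19 and 0.85 ± 0.19).

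Of 20 brakes on insulin signalling in the Bmal1 KO, 1 rose and 2 fell under AL, below the 24.4% of all genes, and 2 rose and 3 fell under RF, near the 20.6% of all genes. In the Cry KO, 3 rose under AL (all genes 33%) and none was called under RF (6.3%). Trib3, a pseudokinase that binds AKT, fell in Bmal1 KO AL (-1.92 ± 0.26, adjusted p = 5.36e-08, edgeR quasi-likelihood test). Grb14, an adaptor that inhibits the insulin receptor, rose in Bmal1 KO under AL (0.45 ± 0.10) and RF (0.65 ± 0.10) and in Cry KO AL (0.29 ± 0.10). Medians of these 3 lists lay between -0.22 and 0.04 on the log2 scale in the 4 comparisons, beside all-gene medians from -0.03 to 0.02.

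Of 26 further FOXO target genes, Bmal1 KO had 4 that rose and 6 that fell under AL (all genes 24.4%), and 6 that rose and 2 that fell under RF (20.6%). Cry KO had 8 that rose and 1 that fell under AL, near the 33% of all genes, and 3 that rose and 1 that fell under RF (6.3%). The list median was -0.12, 0.03, 0.17 and 0.10, beside 0.02, 0.01, -0.03 and -0.03 for all genes. Cdkn1a, a cell-cycle inhibitor that the clock and p53 also control, rose in Bmal1 KO (2.63 ± 0.27 and 3.29 ± 0.28 under AL and RF) and fell in Cry KO (-2.48 ± 0.32 and -1.75 ± 0.30). Pdk4, which restrains glucose oxidation in fasting, rose in Bmal1 KO under AL (1.78 ± 0.25) and RF (2.01 ± 0.25) and in Cry KO RF (0.997 ± 0.25). Pck1, a gluconeogenic enzyme, rose in Cry KO AL (1.34 ± 0.26, adjusted p = 7.85e-05, edgeR quasi-likelihood test). By the cosine, 8 and 9 of the 26 were rhythmic in Bmal1 WT under AL and RF (all genes 9.97% and 12.8%), and 9 and 11 in Cry WT (6.67% and 18.9%). The corresponding numbers were 0 and 5 in Bmal1 KO (0.0317% and 5.26%), and 0 and 7 in Cry KO (0% and 6.63%). In both AL KO groups nearly all genes failed this test, so a count of 0 is near the background.

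Of 9 genes that insulin induces, chiefly enzymes of fatty acid synthesis and their regulators, 5 fell in Bmal1 KO AL (all genes 24.4%), 6 fell in Bmal1 KO RF (20.6%), 2 fell in Cry KO AL (33%), and 3 rose in Cry KO RF (6.3%), with none going the other way among those called. The list median was -0.86, -0.95, -0.39 and 0.43. Thrsp, a lipogenic regulator, fell in Bmal1 KO under AL (-1.84 ± 0.30) and RF (-2.27 ± 0.30) and rose in Cry KO RF (1.12 ± 0.29, adjusted p = 0.00926). Scd1, a fatty acid desaturase, fell in Bmal1 KO under AL (-1.46 ± 0.26) and RF (-1.84 ± 0.27). Fasn, the fatty acid synthase, fell in Cry KO AL (-0.64 ± 0.25, adjusted p = 0.0419), rose in Cry KO RF (1.01 ± 0.25, adjusted p = 0.00569), and was higher under RF than AL in Cry KO (1.14 ± 0.25, adjusted p = 0.00125, edgeR quasi-likelihood test), where 4 of the 9 rose (all genes 18.2%). The Cry KO AL values rest on the 2 unlike series described above.

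**Figure D5:**
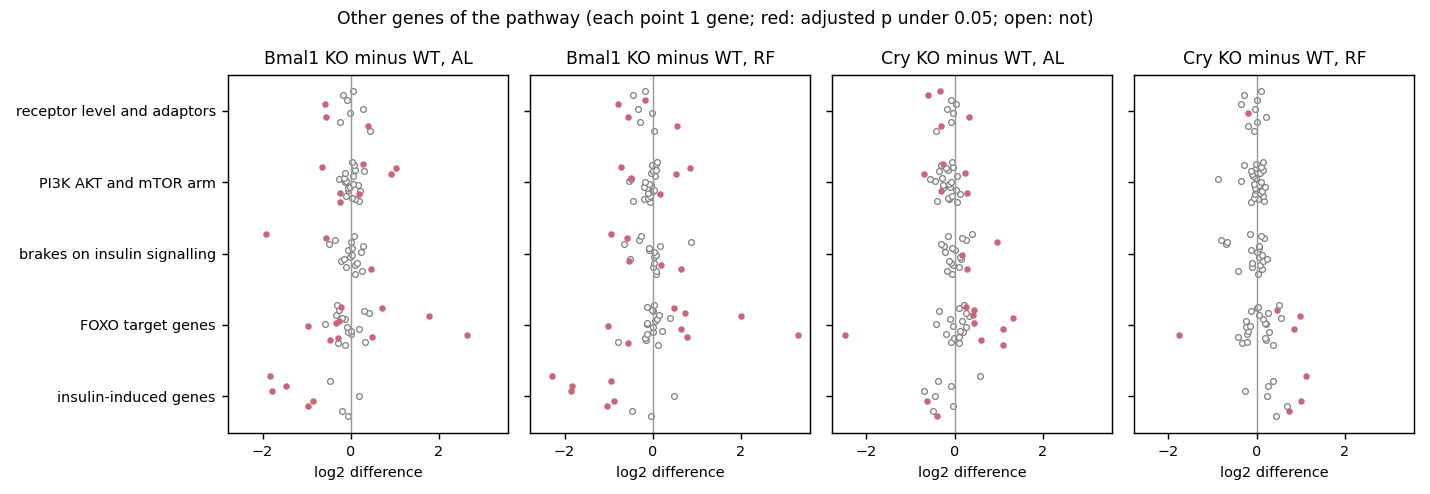
Log2 difference of KO from WT (mean of 6 times) for each tested gene of the 5 pathway lists in the 4 line and regimen pairs, with red points where the adjusted p was under 0.05 and open points elsewhere. The median of the insulin-induced list is -0.86 and -0.95 in the Bmal1 panels, -0.39 in Cry AL and 0.43 in Cry RF.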

How the data were processed

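The deposited table holds whole-number counts per gene for 96 libraries. Per the labels' protocols, a stranded mRNA kit was used on 250 ng of liver RNA, with 11 cycles of PCR and paired-end sequencing of 100 cycles. Per the submitters' processing notes, STAR 2.4.0i and the mouse build mm10 were used; which program counted the reads, with which strand setting and annotation, is not given in the sources used here. Each library was matched to its column by title, and groups came from the genotype and feeding labels.

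Counts were scaled by TMM and tested with edgeR 4.0.16 in R 4.3.3 (quasi-likelihood, a mean for each of 48 cells of group and time, all 96 libraries in 1 fit, genes kept by filterByExpr with a minimum count of 10). P-values were adjusted by Benjamini-Hochberg over all 15772 genes tested, within each comparison. CPM values are counts-per-million after TMM scaling. Levels between genes were compared per kilobase of summed exon length. Rhythms were fitted with a 24 h cosine in each group. The method was tested on simulated data with libraries drawn independently and no series effect. That simulation cannot show how the tests behave when libraries of a series are correlated. The consensus correlation within series was 0.248 in the limma-voom fit. Alternatives used limma 3.58.1 and DESeq2 1.42.0. The members are described in every comparison, and other genes are named by list, up to 3 per list and comparison with the smallest p among those called. The members and lists were chosen with earlier results of these data known. Depth limits precision most in the 3 shallowest libraries (1478963, 2694543 and 3181499 counts), and no replicate number is stated to mark an animal.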

Additional observations from a re-analysis of the deposited data

Results flagged for a closer look

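In 10 results a knockout effect differed between lines or regimens, or a rhythm differed between KO and WT, by the tests of differences reported above (log2, edgeR quasi-likelihood test). Between lines under AL, the Cry KO effect minus the Bmal1 KO effect was -1.31 for Irs1, 0.28 for Akt2, 0.67 for Foxo3 and 2.06 for Igfbp1. Under RF it was 0.70 for Foxo3, -2.02 for Irs2 and -2.80 for Igfbp1. Between regimens, the Cry KO effect on Igfbp1 was lower by 2.49 under RF, that is a difference of -2.49. Between Cry KO and Cry WT under RF, the rhythm differed for Foxo1 and Foxo3, with differences of fitted range of -0.14 and -0.58. For Foxo1 the fitted peak was at 5.79 h in Cry KO RF, where the cosine was not called, and at 13.6 h in Cry WT RF. The 3 results for Igfbp1 include the widest-spread gene of the 8, and in Cry KO AL its series had means of 34.1 and 178 CPM.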

How the results depend on the processing

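Fits that left out 1 series at a time gave ranges of 6 to 12 called knockout effects (8 with all libraries), 0 to 7 feeding effects (1), 5 to 14 differences between effects (8), 0 to 2 wild-type differences (0), 2 to 13 single-time knockout effects (7), 0 to 6 single-time feeding effects (0), 5 to 11 rhythms (8) and 0 to 2 rhythm differences (2). The Foxo1 rhythm difference ranged from -0.31 to 0.07, and turned to 0.068 without series 5 of Cry KO RF. All-gene calls moved between the leave-out fits as well. RF against AL in Cry KO called 8362 of 16504 genes without series 1 of Cry KO AL and 373 of 16507 without series 2. All-gene shares are not given beside most counts in this section. With the series as a random effect in limma-voom there were 3 knockout effects, 0 feeding effects and 3 differences between effects. For feeding, that fit called 2 of all 15772 genes in Bmal1 WT and 0 in each of the other genotypes. Feeding effects numbered 3 with DESeq2, 2 with only the groups compared, 2 with RLE size factors, 2 with a mean of at least 1 CPM, 2 without the libraries that stood apart, and 4 with cosine intercepts, which gave 1 wild-type difference. Single-time knockout effects numbered 15 with DESeq2, 4 with only the groups compared and 11 without the ZT12 library. Without a filter on low counts there were 9 feeding effects, 13 differences between effects, 3 wild-type differences, 40 and 20 single-time knockout and feeding effects, 26 rhythms and 15 rhythm differences. Rhythm differences numbered 1 with time means in place of a cosine, 0 without the libraries that stood apart and 0 without the 3 shallowest. The causes were not tested. Foxo3 calls on mean level and the Irs1 difference between lines under AL were kept in every alternative run for them. With the replicate number as a replicate block in the Bmal1 line there were 8 knockout effects, 8 differences between effects, 8 single-time knockout effects and 2 rhythm differences. Under each regimen, the log2 difference between the 2 numbers in Bmal1 KO was correlated with that in Bmal1 WT over 15772 genes. At single times r was -0.07 to 0.22 under AL and 0.05 to 0.20 under RF. For the mean of the 6 times it was 0.182 and 0.218. The labels do not say what a number marks, and the numbers were not taken to pair animals. The single-time values were not all above 0.1, while those for the mean of the 6 times were positive. These correlations cannot decide whether a number pairs KO with WT.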
